A study of Rattus norvegicus with 10 samples.

Results

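ATP-binding cassette (ABC) genes were examined in epithelial cells of rat distal colon after dietary bile acid. Members were all rows of the deposited table whose symbol starts with Abca to Abcg and a digit, except Abcc2, Abcc3, Abcc4, Abca1 and Abcg1, which gave 48 of the 23422 genes. Of these, 8 were placed among xenobiotic exporters, 18 among lipid transporters and 22 among other ABC proteins. RNA came from male Wistar Munich rats weighing 284 to 347 g when they entered metabolic cages, with age not given in the sources used here. All rats ate standard chow for 3 days of acclimatization. Control rats then stayed on it, and the cholate group ate the same chow with 1% w/w sodium cholate, the salt of a primary bile acid, for 10 days. Of the 12 rats, 6 received cholate, and the 5 of each diet whose extracts held the most concentrated RNA went on to sequencing, so the choice was not random. Epithelial cells were shaken from everted distal colon with EDTA, so each library is a bulk of all cells released. In bulk samples, fewer cells of a type and less RNA per cell cannot be told apart. Controls were rats 1, 2, 5, 6 and 9 and cholate rats were 3, 4, 7, 8 and 11; values below are listed in that order.

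ABC proteins bind and hydrolyse ATP through paired nucleotide-binding domains. Most couple this to the passage of a substrate across a membrane, and the subfamilies named A to G follow sequence. In gut epithelium, P-glycoprotein and the breast cancer resistance protein sit in the apical membrane and pump drugs and dietary compounds back to the lumen. Members of subfamilies A, D and G carry sterols, phospholipids or fatty acyl-CoA, several of subfamily B work in mitochondria, and those of E and F lack membrane domains and act on ribosomes.

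Total counts ran from 14337356 to 45285762 per library. The first principal component of the 12385 genes that passed the filter on low counts held 46.8% of the variance and did not follow diet. Control rats 5 and 9 and cholate rats 8 and 11 had negative scores and the other 6 rats positive ones. These 4 libraries had 14337356 to 25957175 counts, the other 6 had 25004778 to 45285762. Each of the 4 also had a lower median than the other 6 for genes of at least 2250 coding bases, given below. The sides were set from these data and are no study groups, and results that differ between them are given below. The cells carried colonocyte markers: Car1, Car4, Slc26a3, Krt20, Aqp8, Ceacam1 and Cdhr5 were all measured, and their summed level was 3497 to 4882 CPM (counts scaled to TMM library size) in controls and 7319.6 to 11136 CPM on cholate, with 3 of 7 genes called higher. The called genes were Car1, Car4 and Krt20, and Aqp8 was higher only at an adjusted p under 0.05. Slc26a3, Cdhr5 and Ceacam1 passed neither, with log2 changes of 0.95, 0.06 and -0.14. Over all genes tested 1.1% were called higher and 2.12% lower. At an adjusted p under 0.05 alone the shares were 6.48% and 7.28%. Some markers of other cells were called too. The summed level of 7 enteroendocrine markers was 214 to 282 and 296 to 546 CPM, with 3 of 7 called higher, Gcg, Pyy and Cck. Chga, Chgb, Neurod1 and Tph1 passed neither threshold, with log2 changes of -0.08, 0.02, -0.02 and 0.23. For 6 smooth muscle markers it was 42.4 to 61.9 and 8.17 to 13.5 CPM, with Des called lower and Myh11, the other measured gene, lower only at an adjusted p under 0.05. Most of that sum was Des, with means of 38.2 CPM in controls and 4.50 CPM on cholate. The means of Acta2, Cnn1, Actg2 and Tagln were at most 0.343 CPM and had no shared direction. Endothelium and blood had 20.3 to 47.5 and 10.1 to 23.9 CPM with 1 of 4 called lower, proliferating crypt 620.4 to 756 and 741 to 1192 CPM with 2 of 7 called higher, and goblet 7677 to 24465 and 7305 to 26518 CPM with 1 of 8 called higher and 1 lower. None of 6 measured tuft, 3 lymphocyte (T, NK), 1 plasma cell, 5 macrophage, 4 granulocyte, 1 fibroblast or 1 enteric glia marker was called, though Col1a1 fell at an adjusted p under 0.05; Col1a2 had no count. The part of these shifts in the ABC results was not tested.

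Of the 48 ABC genes, 32 passed the filter and were tested, and 16 did not. A gene was called when its adjusted p was under 0.01 and its fold change over 2, the criteria stated for the study. By this rule 2 members fell, Abcg3l4 and Abcg3l1, and none rose (6.25% of the 32, beside 3.21% of all genes tested, 2.12% lower and 1.1% higher). At an adjusted p under 0.05 with no fold limit, 7 members fell and 2 rose, 28.1% of the 32 beside 13.8% of all genes. That is 21.9% lower, beside 7.28% of all genes, and 6.25% higher, beside 6.48% of all genes. The fallers were Abcg3l4, Abcg3l1, Abcg3l3, Abca17, Abca2, Abca3 and Abcc5, and the risers were Abcg2 and Abcb8. Abcg3l4, Abcg3l1 and Abcg3l3, which include both called genes, lie in the same stretch of chromosome 14. As described below they may not be separate observations, which limits the comparison of these shares with those of all genes. Diets did not overlap for 7 members lower on cholate and 1 higher, beside 6.8% and 6.3% of all genes (13.1% in either direction). In the 6 libraries with positive scores 12 members fell and 5 rose at an adjusted p under 0.05, where 38.5% of all genes passed, and 3 were called by the stricter rule, where 7.93% of all genes were. With the side of the component as a second term in the fit of all 10 rats, 10 fell and 7 rose, beside 18.4% and 17.3% of all genes (35.7% in either direction), and 4 were called by the stricter rule, all lower, beside 6.69%. The median log2 change of the 32 was -0.23, beside -0.01 for all genes tested. Genes of at least 2250 coding bases had median log2 deviations of 0.24, 0.25, 0.06, 0.25 and -0.24 in controls. On cholate these were 0.12, 0.08, 0.09, -0.39 and -0.28. Of the 7 fallers, Abca2 (7308 bases), Abca17 (5440), Abca3 (5115) and Abcc5 (4407) are that long. Abcg3l4 (1131), Abcg3l1 (2124) and Abcg3l3 (1944) are shorter. Tested members that did not fall at that threshold were often that long too, among them Abca4 (6939), Abca7 (6513) and Abcc1 (4593). The part of coding length in the ABC median and counts was not tested.

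The classes had different mixes of direction. Of 6 measured xenobiotic exporters, 5 had a positive change and the median log2 change was 0.65, with 1 rising and 1 falling at an adjusted p under 0.05. Of the 5 positive changes, those of Abcc1 (0.12) and Abcc10 (0.01) were near 0 and changed sign in 4 and 10 of 18 alternative fits. Over all genes tested, 6.48% were higher and 7.28% lower at that threshold and the median was -0.01, with 6061 of 12385 changes positive. The 8 measured lipid transporters had a median of -0.26, with 3 positive changes, 2 falling and none rising. The 18 other proteins had a median of -0.29, with 6 positive changes, 4 falling and 1 rising. The difference between classes was not tested, and the median of the exporters ran from 0.11 to 0.81 over the alternative settings. It was 0.35 without cholate rat 4 and 0.11 when 5 CPM was the lowest mean allowed, which removes Abcb1b.

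**Figure D1:**
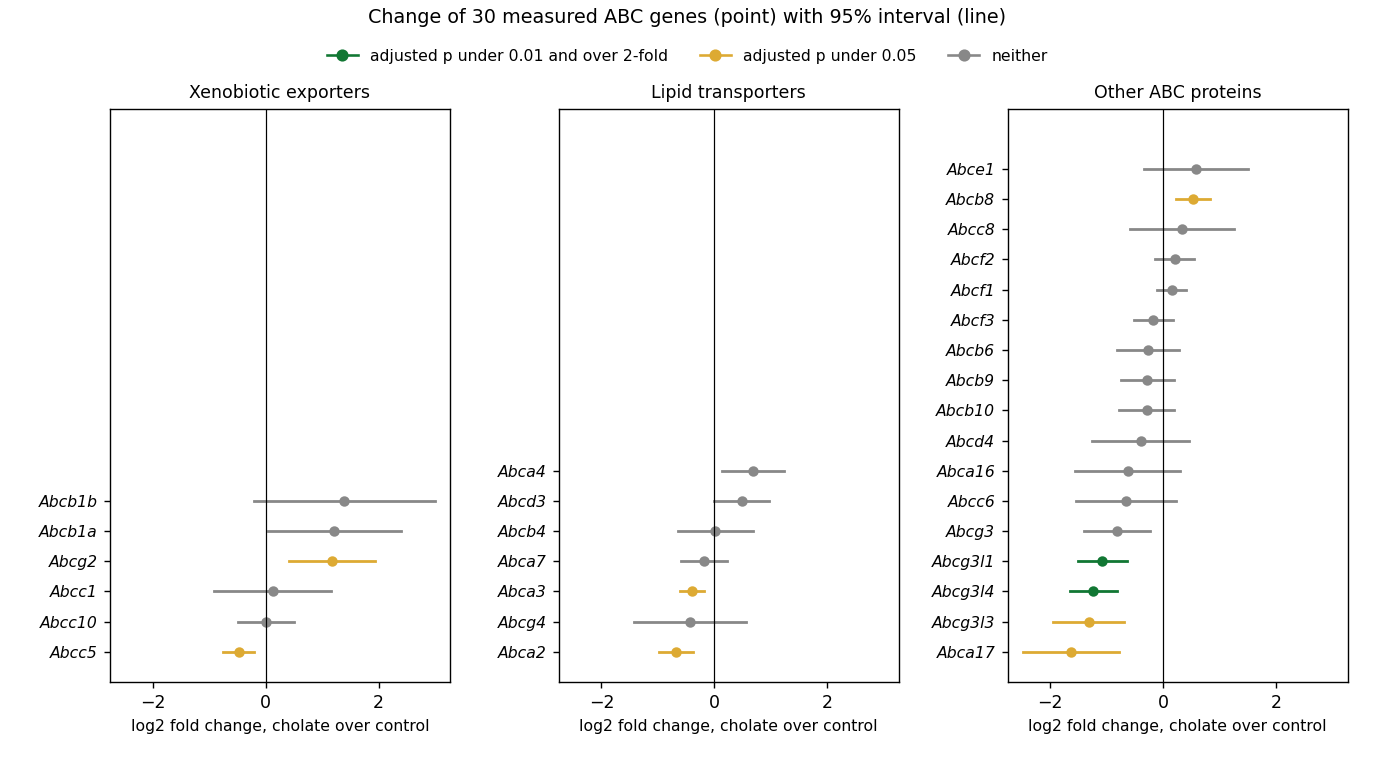
Log2 fold change (x axis, cholate over control) of 30 of the 32 measured ABC genes in 3 classes, with the 95% interval of the edgeR fit as a line; colour marks the adjusted p. Abcg3l4 and Abcg3l1 are the 2 called genes, and the line of Abcb1a runs from 0.04 to 2.39.

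Levels of different genes were compared per kilobase of coding length, since the table gives summed coding exons. In controls the highest was Abcd3, an importer of branched and bile acid precursor acyl-CoA into peroxisomes, at 83.1 ± 15.7 CPM per kb (mean ± SD, n = 5). Abcf1 (56.5 ± 8.13 CPM per kb) and Abcf3 (51.7 ± 5.71 CPM per kb), which act in translation, came next and overlapped each other within their SD. The phospholipid transporter Abca3 had 36.6 ± 2.00 CPM per kb. The exporters Abcg2 and Abcb1a had control levels of 22.7 ± 10.97 and 22.6 ± 9.20 CPM per kb that did not differ beyond their spread. On cholate they were at 51.2 ± 17.1 and 52.3 ± 44.7 CPM per kb. The least of the 32 was Abcb1b, at 0.0861 ± 0.0743 CPM per kb in controls; Abcb1a and Abcb1b both encode P-glycoprotein.

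**Figure D2:**
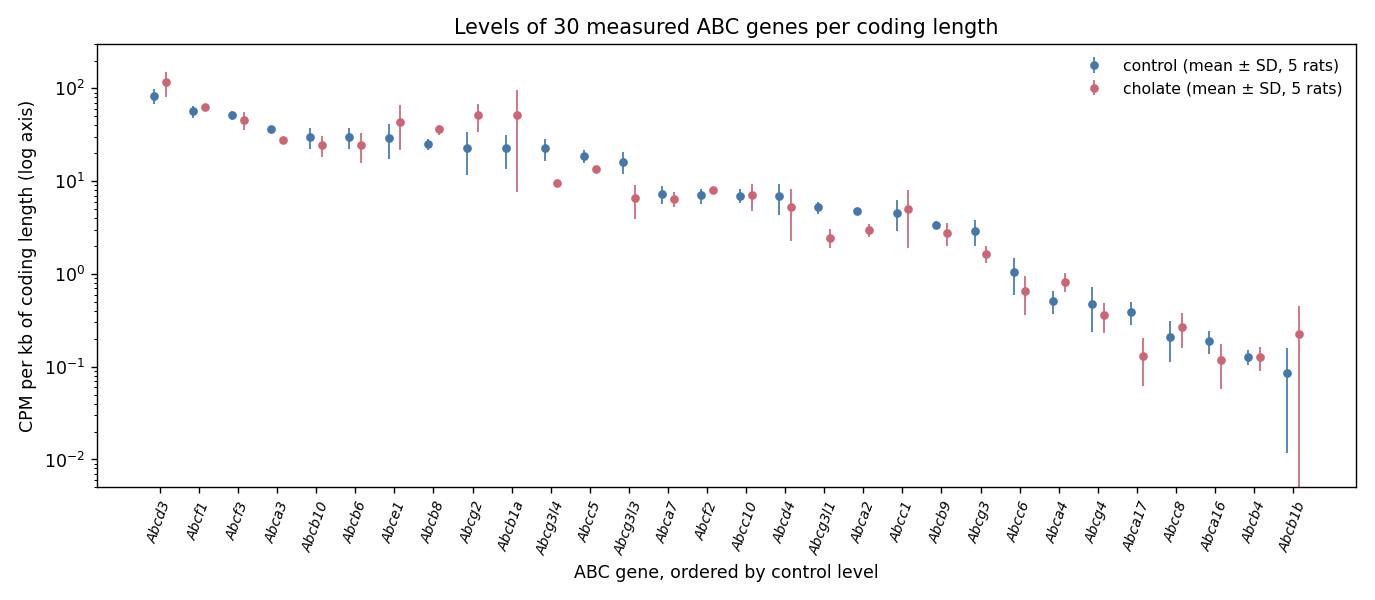
Level of 30 measured ABC genes in CPM per kb of coding length (log axis), ordered by control level, as mean ± SD over 5 rats per diet. Abcd3 stands highest at 83.1 CPM per kb in controls and Abcb1b lowest at 0.0861.

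Among xenobiotic exporters, Abcg2, the breast cancer resistance protein of the apical membrane (Entrez 312382, rn6 chromosome 4, 88765441 to 88890268, plus strand), rose on cholate. Its level was 62.8, 28.0, 38.3, 72.0 and 22.7 CPM in controls and 57.7, 145, 121, 98.3 and 83.4 CPM on cholate. Cholate rat 3 lay below controls 1 and 6, so the diets overlapped, while cholate rats 4, 7, 8 and 11 lay above every control (log2 change 1.18, SE 0.35, 95% interval 0.41 to 1.94, adjusted p = 0.0468). The adjusted p was over 0.05 in 8 of 10 fits that left out 1 rat, all but those without control rat 6 or cholate rat 3, with a highest value of 0.112 without control rat 2. It was 0.149 in the 6 positive-score libraries, 0.0745 with library size alone, 0.0512 with no filter on low counts and 0.0556 when 5 CPM was the lowest mean allowed. It stayed under 0.05 with the side term (0.0135), and DESeq2 called the gene higher (log2 change 1.19, adjusted p = 0.00742). The summed colonocyte marker level of every cholate rat also lay above every control, though Slc26a3, Cdhr5 and Ceacam1 in that sum did not pass. The part of the marker level in the rise of Abcg2 was not tested.

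Abcb1a, the rodent P-glycoprotein gene (Entrez 170913, rn6 chromosome 4, 22339829 to 22517642, minus strand), had 96.6, 118, 61.4, 116 and 38.5 CPM in controls and 145, 481, 233, 73.1 and 67.6 CPM on cholate. Cholate rat 4 was the highest, and cholate rats 8 and 11 lay among the controls. The change did not pass the test over all 10 rats (log2 change 1.21, SE 0.54, 95% interval 0.04 to 2.39, adjusted p = 0.16). Without cholate rat 4 the log2 change was 0.59 (adjusted p = 0.424). Within each side of the first component the diets did not overlap. Cholate rats 3, 4 and 7 were above controls 1, 2 and 6, and cholate rats 8 and 11 were above controls 5 and 9. With the side as a term the log2 change was 1.03 (adjusted p = 0.0285), and limma-voom gave an adjusted p of 0.0233. Non-overlap in the higher direction on both sides was seen for 4 of 32 ABC genes, among them Abcb1a, Abcb8 and Abcd3, beside 14.8% of all genes; 9 did so in the lower direction, beside 15.1% (29.9% in either direction). The gene overlaps Rundc3b on the opposite strand, and the strand setting of the counting was not given in the sources used here.

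The neighbouring paralog Abcb1b (Entrez 24646, rn6 chromosome 4, 22225123 to 22307577, minus strand) was scarce, at 0.386, 0.192, 0.224, 0.793 and 0.0544 CPM in controls and 0.554, 2.22, 1.12, 0.188 and 0.228 CPM on cholate. Its highest value was again in cholate rat 4, the diets overlapped, and its log2 change of 1.39 (adjusted p = 0.231) did not pass; without cholate rat 4 it was 0.69 and without control rat 6 it was 2.02. Limma-voom gave it an adjusted p of 0.0448. Abcb1a and Abcb1b are close paralogs, and reads shared by both were treated in a way not given in the sources used here. Abcc5, which exports cyclic nucleotides and organic anions (Entrez 116721, rn6 chromosome 11, 84395982 to 84490215, plus strand), fell. It had 90.8, 79.7, 99.5, 72.6 and 68.9 CPM in controls and 54.3, 63.0, 56.4, 62.5 and 59.2 CPM on cholate, with no overlap (log2 change -0.48, SE 0.13, 95% interval -0.76 to -0.20, adjusted p = 0.0307). The adjusted p passed 0.05 upward, to at most 0.0825, in 7 of 10 fits that left out 1 rat: controls 1, 2 and 5 and cholate rats 3, 4, 7 and 11. Abcc5 overlaps Yeats2 on the opposite strand.

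Abcc1, a basolateral exporter of glutathione conjugates, had 25.3, 23.0, 18.2, 29.3 and 9.36 CPM in controls and 39.7, 30.7, 27.4, 6.57 and 9.79 CPM on cholate, a log2 change of 0.12 (adjusted p = 0.899). Its lowest values were in control rat 9 and cholate rats 8 and 11. Abcc10, a multidrug exporter, had 28.7, 25.6, 36.9, 28.2 and 37.4 CPM and 23.8, 22.3, 26.6, 43.3 and 42.3 CPM, a change of 0.01 (adjusted p = 0.98) with an interval of -0.48 to 0.50. Its 2 highest cholate values were in rats 8 and 11 and its 2 highest control values in rats 5 and 9. Abcb5 was not tested, with 18 counts over the controls and 37 over the cholate rats, and Abcc12 had no count in any library.

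Promoter windows of the exporters Abcg2 and Abcb1a are shown because these members had the largest positive changes among genes above 1 CPM. Each is the 250 bases before the annotated start in RefSeq on GRCr8, 5′ to 3′ on the gene's strand; capitals mark matches on either strand to the TATA box (TATAAA), the CCAAT box, the GC box (GGGCGG), the E-box (CACGTG) or the AP-1 site (TGACTCA).
Abcg2 (chr4:89075224-89075473, plus strand): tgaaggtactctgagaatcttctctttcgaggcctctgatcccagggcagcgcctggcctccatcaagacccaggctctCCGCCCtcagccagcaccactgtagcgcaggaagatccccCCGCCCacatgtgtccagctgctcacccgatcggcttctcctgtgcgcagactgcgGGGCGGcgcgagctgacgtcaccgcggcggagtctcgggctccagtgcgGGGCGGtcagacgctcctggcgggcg
Abcb1a (chr4:26397649-26397898, minus strand): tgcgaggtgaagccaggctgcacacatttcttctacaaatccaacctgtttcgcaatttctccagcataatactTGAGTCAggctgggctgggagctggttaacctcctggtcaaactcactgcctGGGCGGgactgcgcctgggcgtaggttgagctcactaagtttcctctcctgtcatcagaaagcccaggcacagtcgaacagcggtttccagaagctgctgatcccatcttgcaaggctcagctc
Of the 48 members, 40 had a window in that table. The GC box was in 21 of 40 and in 32.4% of all 27457 windows; Abcg2 held it at 4 places and Abcb1a at 1. The AP-1 site was in 1 of 40, that of Abcb1a, and in 3.98% of all windows. The CCAAT box was in 13 of 40 (34.3% of all), the TATA box in 5 of 40 (13.1% of all) and the E-box in 2 of 40 (5.79% of all).

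**Figure D3:**
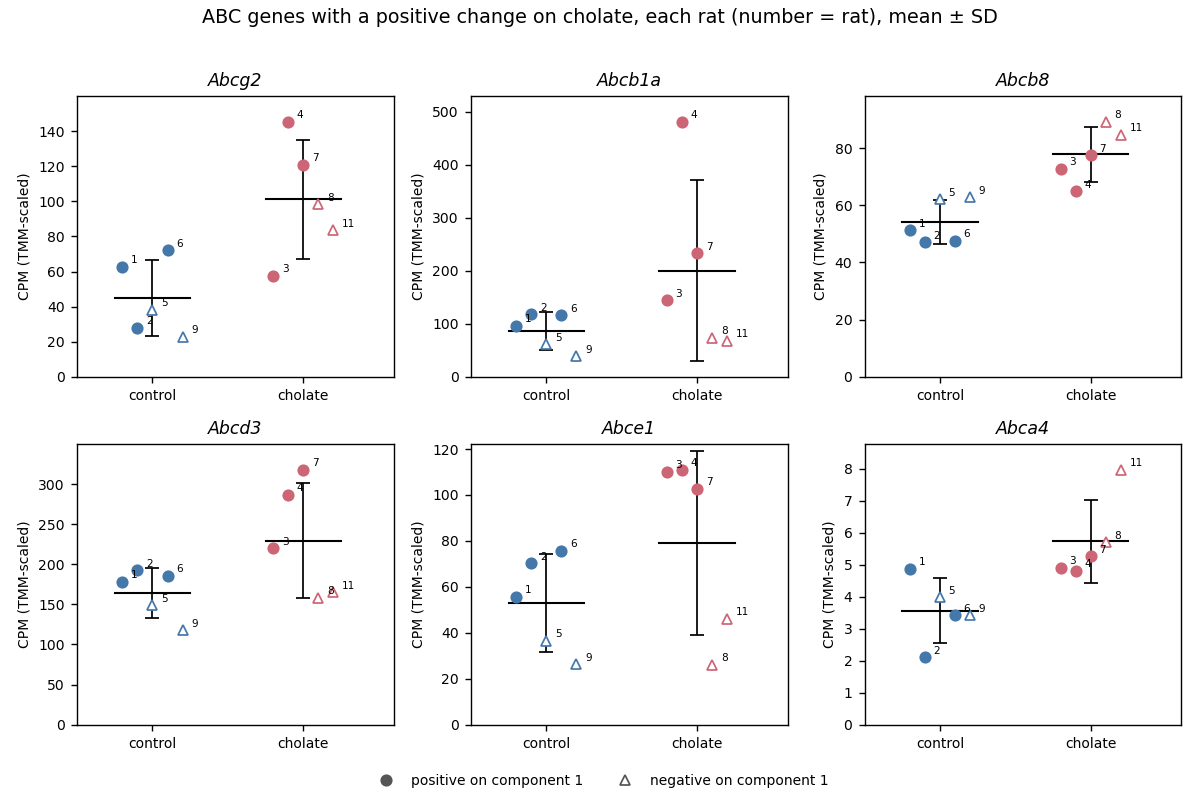
Level (CPM after TMM scaling) in each rat for 6 ABC genes with a positive change, with mean ± SD per diet; filled circles are rats with a positive score on the first principal component and open triangles those with a negative one. Abcb8 separates the diets in all 10 rats, while Abcb1a and Abcd3 separate them only within each kind of symbol.

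Among lipid transporters the clearest decrease was that of Abca2, which handles lipids of late endosomes and lysosomes (Entrez 79248, rn6 chromosome 3, 2648787 to 2668770, plus strand). It had 36.7, 33.9, 34.9, 34.8 and 34.2 CPM in controls and 25.9, 18.7, 21.9, 24.5 and 17.8 CPM on cholate. The controls lay close together and every cholate rat was lower (log2 change -0.68, SE 0.14, 95% interval -0.98 to -0.38, adjusted p = 0.00933). Its fold was under 2, and it remained under an adjusted p of 0.05 in each of the 18 alternative fits. Abca3, the phospholipid transporter of lamellar bodies (Entrez 302973, rn6 chromosome 10, 13723365 to 13780558, plus strand), had 180.5, 203, 188, 188 and 176 CPM in controls and 155, 145, 152, 131 and 127 CPM on cholate. All cholate rats were again lower (log2 change -0.40, SE 0.10, 95% interval -0.61 to -0.18, adjusted p = 0.023). The adjusted p of Abca3 rose above 0.05, to at most 0.0673, in 6 of 10 fits that left out 1 rat, those of controls 2, 5 and 6 and cholate rats 4, 8 and 11.

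The peroxisomal importer Abcd3 had 178, 193, 149, 185 and 118 CPM in controls and 220.2, 287, 318, 158 and 165 CPM on cholate. Cholate rats 8 and 11 lay below controls 1, 2 and 6 and above controls 5 and 9 (log2 change 0.48, SE 0.22, 95% interval -0.0043 to 0.97, adjusted p = 0.177). With the side of the component as a term its change was 0.45 (adjusted p = 0.0095), in the 6 positive-score libraries it was 0.60 (adjusted p = 0.0083), and limma-voom gave an adjusted p of 0.00868.

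Abca4, known as the retinoid transporter of photoreceptors, had 4.87, 2.11, 3.99, 3.42 and 3.43 CPM in controls and 4.91, 4.81, 5.27, 5.70 and 7.97 CPM on cholate, a change of 0.68 (adjusted p = 0.0981); cholate rat 11 was the highest and control rat 1 lay above cholate rat 4. With the side term its change was 0.66 (adjusted p = 0.0398), and DESeq2 gave an adjusted p of 0.0345. The phospholipid exporter Abca7 had 47.5 ± 10.2 CPM in controls and 41.8 ± 7.76 CPM on cholate (mean ± SD, n = 5 per diet), and its change of -0.19 (adjusted p = 0.553) did not pass. Abcb4, the canalicular phosphatidylcholine floppase, had 0.497 ± 0.0919 and 0.495 ± 0.147 CPM and a change of 0.01 (adjusted p = 0.981). The sterol exporter Abcg4 had 0.936 ± 0.476 and 0.703 ± 0.249 CPM and a change of -0.43 (adjusted p = 0.582). The other 10 lipid transporters were not tested. Abcg5 and Abcg8, which together form the sterol exporter of small intestine and liver, had 0 and 3 counts over all 10 libraries; a count of 0 allows up to 3 counts, or 0.0108 CPM, over all libraries, for counting error only. Abca6 and Abca8 had no count, Abca9, Abca13 and Abca8a had 1, 1 and 6 counts in all. Abca5 had 10 and 12 counts over controls and cholate rats and Abcd2 had 19 and 14. Abca12, the glucosylceramide transporter of skin, had 14 counts over controls and 50 over cholate rats, 27 of them in cholate rat 3.

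The rodent Abcg3 genes, relatives of Abcg2 that cluster on chromosome 14, held 3 of the 7 members that fell, and all 4 had negative changes with a median of -1.16. Over all genes tested 7.28% were lower at an adjusted p under 0.05 and the median was -0.01. Abcg3l4 (Entrez 360997, rn6 chromosome 14, 5568023 to 5746903, minus strand) had 36.3, 21.5, 27.2, 24.1 and 18.4 CPM in controls and 11.7, 10.9, 10.98, 10.6 and 9.95 CPM on cholate. Every cholate rat lay below every control, and the cholate rats differed little from each other (log2 change -1.24, SE 0.19, 95% interval -1.64 to -0.83, adjusted p = 0.00269). It was the 1 ABC gene called in all 18 alternative fits. Abcg3l1 (Entrez 289453, rn6 chromosome 14, 6488655 to 6541220, minus strand) had 12.4, 12.3, 8.69, 10.1 and 11.9 CPM in controls and 7.20, 4.52, 5.43, 4.70 and 4.25 CPM on cholate, also with no overlap (log2 change -1.08, SE 0.20, 95% interval -1.51 to -0.65, adjusted p = 0.00618). Its adjusted p stayed at or under 0.0211 in every alternative fit, but an adjusted p under 0.01 was lost in 9 of 10 fits that left out 1 rat, all but the one without cholate rat 3. In the 6 positive-score libraries its adjusted p was 0.00544, and the call was lost because the log2 change of -0.997 fell just short of 2-fold. Abcg3l3 (Entrez 305142, rn6 chromosome 14, 5733361 to 6104164, plus strand) had 42.5, 31.2, 27.1, 36.9 and 20.6 CPM in controls and 14.3, 11.1, 20.6, 9.77 and 7.52 CPM on cholate. Cholate rat 7 just exceeded control rat 9, the only crossing (log2 change -1.32, SE 0.29, 95% interval -1.95 to -0.69, adjusted p = 0.0131); its adjusted p was under 0.05 in each of the 18 alternative fits. Abcg3 itself (Entrez 498327, rn6 chromosome 14, 5971984 to 6053039, plus strand) had 4.07, 3.14, 6.15, 2.93 and 5.01 CPM in controls and 2.22, 1.99, 2.06, 3.13 and 2.73 CPM on cholate. Its cholate values were mostly below the controls, with overlap at cholate rat 8. Its change did not pass in the main edgeR fit of all 10 rats (log2 change -0.82, SE 0.26, 95% interval -1.40 to -0.24, adjusted p = 0.0621). It passed 0.05 in 5 alternative fits, with a change of -0.78 (adjusted p = 0.00658) with the side term and -0.66 (adjusted p = 0.0499) in the 6 positive-score libraries, and adjusted p of 0.0176 by DESeq2, 0.0138 by limma-voom and 0.0295 with library size alone.

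The 4 genes lie between 5568023 and 6541220 of rn6 chromosome 14, a stretch with 25 annotated genes of which 5 were tested. The fifth was Mpa2l, a gene of the interferon-induced guanylate-binding protein family, with 1.56 CPM in controls and 0.157 CPM on cholate (log2 change -3.34, SE 0.64, adjusted p = 0.00768). All 5 tested genes of the stretch had lower means on cholate. Over all genes tested, 6324 of 12385 had a negative change. The annotated Abcg3l3 gene encloses Abcg3 and Mpa2l on its strand and overlaps Abcg3l4 on the other. Reads of overlapping or similar gene models could have been shared or split between them. The separate values are therefore uncertain, and the 5 genes may not be separate observations. The similarity of the coding sequences was not tested.

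The promoter windows show how alike some of these copies are. They are printed as before, the 250 bases before the start in RefSeq on GRCr8, with the same capitals.
Abcg3l4 (chr14:4890062-4890311, minus strand): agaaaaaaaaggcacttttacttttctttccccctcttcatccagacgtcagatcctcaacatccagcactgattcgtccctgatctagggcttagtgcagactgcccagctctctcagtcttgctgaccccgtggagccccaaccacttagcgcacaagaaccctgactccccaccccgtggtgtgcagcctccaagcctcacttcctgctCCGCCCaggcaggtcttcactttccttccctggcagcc
Abcg3l1 (chr14:5481877-5482126, minus strand): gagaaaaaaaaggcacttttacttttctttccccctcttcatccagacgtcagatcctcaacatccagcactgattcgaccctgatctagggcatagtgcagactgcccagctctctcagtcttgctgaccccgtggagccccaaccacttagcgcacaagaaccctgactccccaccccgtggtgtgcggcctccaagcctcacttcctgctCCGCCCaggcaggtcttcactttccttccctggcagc
Abcg3l3 (chr14:5148681-5148930, plus strand): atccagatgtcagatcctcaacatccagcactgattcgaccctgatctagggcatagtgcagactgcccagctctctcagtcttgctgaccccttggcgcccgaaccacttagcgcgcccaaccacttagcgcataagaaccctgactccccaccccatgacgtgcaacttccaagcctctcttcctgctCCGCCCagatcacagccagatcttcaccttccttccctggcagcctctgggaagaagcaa
Abcg3 (chr14:5069300-5069549, plus strand): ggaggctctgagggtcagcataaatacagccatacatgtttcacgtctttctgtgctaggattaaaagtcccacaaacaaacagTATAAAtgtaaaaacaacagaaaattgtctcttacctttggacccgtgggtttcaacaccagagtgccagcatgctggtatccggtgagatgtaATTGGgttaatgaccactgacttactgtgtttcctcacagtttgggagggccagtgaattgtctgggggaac
Abcg3l4 and Abcg3l1 were identical at 246 of 249 aligned columns (98.8%). Abcg3l3 matched Abcg3l4 at 196 of 235 columns (83.4%) and Abcg3l1 at 196 of 234 (83.8%). The window of Abcg3 did not align with the others over more than 21 columns. All 3 similar windows hold a GC box, read on the opposite strand, and that of Abcg3 holds a TATA box and a CCAAT box.

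**Figure D4:**
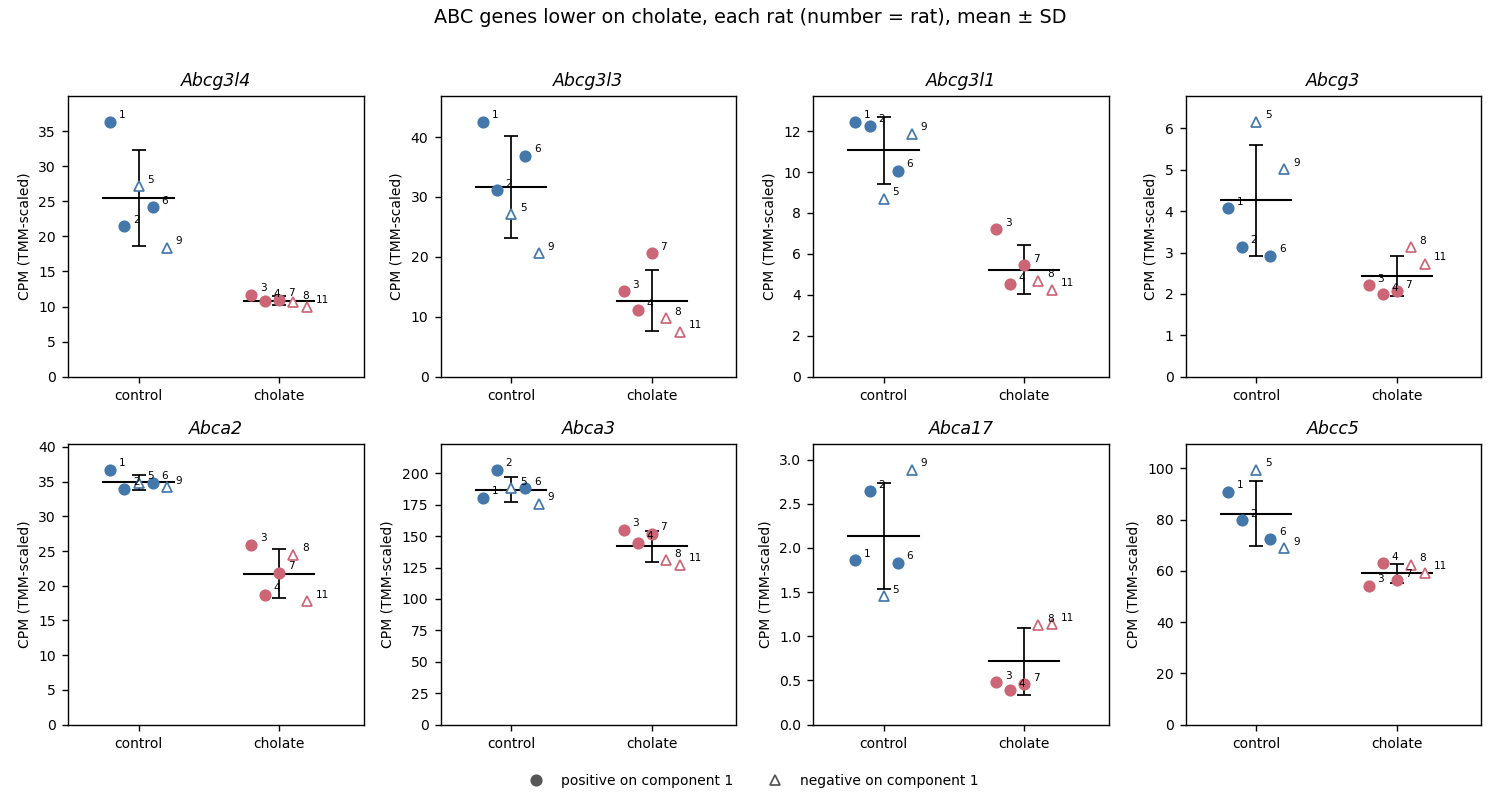
Level (CPM after TMM scaling) in each rat for 8 ABC genes with lower means on cholate, with mean ± SD per diet; symbols as in the plot of genes with a positive change. The diets do not overlap for Abcg3l4, Abcg3l1, Abca2, Abca3, Abca17 and Abcc5, whereas Abcg3l3 and Abcg3 each have 1 cholate rat within the control range.

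Abca17 (Entrez 287112, rn6 chromosome 10, 13630076 to 13723155, minus strand), of a rodent group of ABCA genes, was a low transcript. It had 1.86, 2.64, 1.45, 1.83 and 2.88 CPM in controls and 0.480, 0.390, 0.455, 1.13 and 1.14 CPM on cholate, and no cholate rat reached a control (log2 change -1.63, SE 0.38, 95% interval -2.48 to -0.79, adjusted p = 0.0185). Its adjusted p was 0.0522 without control rat 2, and in the 6 positive-score libraries its change was -2.22 (adjusted p = 0.00144). Abca17 lies head to head with Abca3, with 209 bases between the annotated starts on rn6, and both fell. The window of Abca3 is shown for this reason; it held none of the 5 motifs and the table held no window for Abca17.
Abca3 (chr10:13886834-13887083, plus strand): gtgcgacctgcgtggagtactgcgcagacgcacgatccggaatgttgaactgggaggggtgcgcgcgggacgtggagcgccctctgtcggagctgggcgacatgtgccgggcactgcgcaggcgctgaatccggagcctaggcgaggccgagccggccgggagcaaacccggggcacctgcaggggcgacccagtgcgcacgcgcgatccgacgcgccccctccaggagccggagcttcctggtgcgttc
Abcg5 and Abcg8 share this head to head arrangement with 205 bases between them. Abca16 had 0.933 ± 0.258 CPM in controls and 0.580 ± 0.294 CPM on cholate and a change of -0.63 (adjusted p = 0.371). Abca14 had 2 and 4 counts over controls and cholate rats, and Abca15 had none.

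Of the mitochondrial and heme transporters 1 of 4 rose at an adjusted p under 0.05, beside 6.48% of all genes tested. Abcb8, part of the inner membrane potassium channel complex that responds to ATP (Entrez 362302, rn6 chromosome 4, 7296538 to 7311856, minus strand), had 51.2, 47.0, 62.2, 47.6 and 62.7 CPM in controls and 72.7, 64.9, 77.5, 89.1 and 84.6 CPM on cholate. It was the 1 measured ABC gene with every cholate rat above every control (log2 change 0.52, SE 0.14, 95% interval 0.22 to 0.82, adjusted p = 0.0289). The adjusted p exceeded 0.05, up to 0.0788, without control rat 1, 2 or 6 or cholate rat 7 or 11. Abcb10, an inner membrane protein of heme synthesis, had 64.1 ± 16.3 and 52.3 ± 13.4 CPM and a change of -0.29 (adjusted p = 0.426). The porphyrin transporter Abcb6 had 74.5 ± 18.7 and 61.8 ± 22.1 CPM and a change of -0.27 (adjusted p = 0.526), with -0.37 (adjusted p = 0.0445) in the 6 positive-score libraries and an adjusted p of 0.0438 by limma-voom.

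None of the 4 translation factors passed in the main edgeR fit of all 10 rats. Abce1, which splits ribosomes after termination, had 55.7, 70.3, 36.5, 75.7 and 26.2 CPM in controls and 110.1, 111, 103, 26.1 and 46.1 CPM on cholate. Cholate rats 3, 4 and 7 were above all controls, and cholate rat 8 was below all of them (log2 change 0.58, SE 0.42, 95% interval -0.34 to 1.51, adjusted p = 0.402). With the side of the component as a term its change was 0.49 (adjusted p = 0.0397), in the 6 positive-score libraries it was 0.71 (adjusted p = 0.00232), and limma-voom gave an adjusted p of 0.0421. Abcf1, Abcf2 and Abcf3 had changes of 0.15 (adjusted p = 0.451), 0.20 (adjusted p = 0.44) and -0.18 (adjusted p = 0.497). In the 6 positive-score libraries Abcf2 was at 0.42 (adjusted p = 0.0343) and Abcf3 at -0.28 (adjusted p = 0.0375), and limma-voom gave Abcf3 an adjusted p of 0.0314. The lysosomal cobalamin transporter Abcd4 had 12.5 ± 4.56 CPM in controls and 9.54 ± 5.41 CPM on cholate (change -0.40, adjusted p = 0.555). Its change was -0.51 (adjusted p = 0.0451) with the side term, -0.74 (adjusted p = 0.0187) in the 6 positive-score libraries, and limma-voom gave an adjusted p of 0.02. The lysosomal peptide transporter Abcb9 had 7.75 ± 0.680 and 6.35 ± 1.73 CPM (change -0.29, adjusted p = 0.421). Abcc6, which mediates ATP release, had 4.69 ± 2.02 and 2.97 ± 1.34 CPM (change -0.66, adjusted p = 0.315), and the sulfonylurea receptor Abcc8 had 1.00 ± 0.473 and 1.28 ± 0.532 CPM (change 0.34, adjusted p = 0.656). Abcb11, the bile salt export pump of hepatocytes, had only 32 counts over controls and 10 over cholate rats and was not tested. Abcc9, the other sulfonylurea receptor, had 5 counts, all in cholate rat 4.

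Lists of genes that work with ABC proteins were tested in the same fit, where 3.21% of all genes were called. At an adjusted p under 0.05, 6.48% of all genes were higher and 7.28% lower. Of 16 regulators of ABC genes, all measured, none was called or had an adjusted p under 0.05, and the median was -0.11. The vitamin D receptor Vdr came nearest at a log2 change of -0.99 (adjusted p = 0.0514). With the side of the first component as a term Vdr met the stricter rule (log2 change -1.01, adjusted p = 0.000386), beside 6.69% of all genes. The other regulators stayed above an adjusted p of 0.05 in that fit. Of 18 measured uptake carriers and conjugation genes 3 rose and 2 fell by the stricter rule (median 0.22). The carnitine transporter Slc22a5 fell from 78.1 ± 22.5 to 15.8 ± 4.44 CPM (log2 change -2.30, adjusted p = 0.000722), the uptake carrier Slco2b1 also fell (log2 change -1.92, adjusted p = 0.00106), and glutathione synthetase Gss rose from 130.0 ± 27.0 to 288 ± 55.9 CPM (log2 change 1.15, adjusted p = 0.00291), as did the basolateral bile acid transporter subunit Slc51b (log2 change 2.91, adjusted p = 0.00172) and the sterol sulfotransferase Sult2b1 (log2 change 1.46, adjusted p = 0.00108). Of 15 measured sterol and lipoprotein partners 1 was called, the sterol importer Npc1l1, which rose from 0.633 ± 0.369 to 3.25 ± 1.23 CPM (log2 change 2.38, adjusted p = 0.00695), while Apob (log2 change 1.29, adjusted p = 0.0272) rose at an adjusted p under 0.05, with a list median of -0.36. None of 18 measured genes of peroxisomal fatty acid oxidation was called; Ehhadh, a peroxisomal beta-oxidation enzyme, fell at an adjusted p under 0.05 (log2 change -0.98, adjusted p = 0.0181), as did Pex11a (log2 change -0.71, adjusted p = 0.0207), and the median was 0.07. None of 22 measured genes of heme and iron-sulfur assembly was called, with 1 higher at an adjusted p under 0.05, Aco1 (log2 change 0.41, adjusted p = 0.0225), and a median of 0.18. None of 16 measured genes of ribosome recycling and initiation was called, with 2 higher at an adjusted p under 0.05, Eif2s2 (log2 change 0.43, adjusted p = 0.0193) and Eif2b5 (log2 change 0.35, adjusted p = 0.0429), and a median of 0.23. Of the ABC genes outside the rule, none of 6 measured passed either rule, and the peptide transporter Tap1 came nearest at a log2 change of -0.94 (adjusted p = 0.0585). With the side term Tap1 (log2 change -1.05, adjusted p = 0.00133) and Abca1 (log2 change -1.16, adjusted p = 0.00322) met the stricter rule. The others measured stayed above an adjusted p of 0.05 in that fit. The potassium channel pores Kcnj8 and Kcnj11, partners of the sulfonylurea receptors, had 4 and 67 counts in all and were not tested.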

How the data were processed

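Stranded poly(A) libraries were sequenced on a HiSeq instrument, per the labels' protocols. The submitters' processing notes name bcl2fastq 1.8.4, the build rn6 and BWA 0.7.12-r1039, an aligner that does not model splicing. Counting software and strand handling were not given in the sources used here. The deposited values are raw counts, used for every comparison, and the authors' TMM-scaled signal (edgeR 3.16.2), not used. The other deposited columns are lengths and coordinates in bases; the length equalled the summed coding exons for 53 of 53 ABC genes checked.

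Genes passed filterByExpr with diet as group. TMM-scaled counts went into the edgeR 4.0.16 quasi-likelihood F test with robust estimation in R 4.3.3, with diet as the only term and Benjamini-Hochberg adjustment over 12385 genes. Standard errors, the log2 change divided by root F, are approximate, and 95% intervals rest on them. Alternatives used DESeq2 1.42.0, limma 3.58.1, other scalings and filters and each rat left out; 2 fits on the side of the first principal component were added after seeing the data. The method was tested on simulated counts drawn independently for each gene and library, so no component shared by genes was simulated. The changes put in were larger than those of most ABC genes. That test therefore does not cover the split of the libraries or the smaller changes. A count of 0 allows up to 3 counts, which is 0.0616 to 0.228 CPM depending on the library, for counting error only. Each sample is a separate rat, per the labels. The members and lists were chosen with earlier results of these data known. Measured members were to be named, and some genes are not reported here; those under either threshold, and those with the smallest adjusted p or highest level in their class, were given for each rat. Up to 3 called genes, or the one with the smallest adjusted p, were to be taken from each partner list. For uptake carriers and conjugation all called genes were given. Others given by rat, and list genes passing only at 0.05, were chosen after their values were seen. All but 3 partner genes and 1 marker were found by symbol.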

Additional observations from a re-analysis of the deposited data

Results flagged for a closer look

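Of 64 groups of 5 rats checked for a value far from the others (32 genes in 2 diets), 1 stood out; chance flags about 1 in 20 groups. Abca4 in cholate rat 11 was at 7.97 CPM, against 4.81 to 5.70 CPM in the other cholate rats, a gap of 0.719 of the range.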

How the results depend on the processing

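The count of called ABC genes, 2, was 5 by DESeq2, 4 by limma-voom with quality weights, 4 with the side of the first principal component as a term, 6 at an adjusted p under 0.05 with a fold over 1.5, and 1 to 2 when 1 rat was left out (1 in all but the fits without cholate rats 3 and 7). Abcg3l4 was in each of these sets. DESeq2 added Abca17, Abcg2 and Abcg3l3, and limma-voom and the side term added Abca17 and Abcg3l3. The count at an adjusted p under 0.05, 9, was 19 by limma-voom, 17 with the side term and 17 in the 6 positive-score libraries. Without 1 rat it ran from 4 (control rat 2 left out) to 8 (control rat 9 or cholate rat 3), and was 5 without cholate rat 11. Among all genes 398 were called, and 168 to 450 when 1 rat was left out. Over single genes and settings, 475 values kept their direction and side of the threshold (an adjusted p of 0.05, or the stricter rule for Abcg3l1 and Abcg3l4), 41 lost and 33 gained the call, and 19 changed sign. The sign changed only for Abcb4, Abcc1 and Abcc10, none with an adjusted p under 0.05 in any setting. By library size alone Abcb4 had -0.032 and Abcc10 -0.077. Abcc10 had -0.044 when 5 CPM was the lowest mean allowed, -0.20 by limma-voom, -0.15 in the 6 libraries and -0.030 with the side term, where Abcc1 had -0.073. Without 1 rat Abcb4 ran from -0.15 to 0.13, Abcc1 from -0.16 to 0.38 and Abcc10 from -0.13 to 0.12. In the 6 libraries the median of ribosome recycling and initiation was 0.37 and that of sterol and lipoprotein partners -0.16. Without 1 rat the latter ran from -0.51 to -0.11, nearest 0 without control rat 1 (-0.11), cholate rat 11 (-0.12) or cholate rat 8 (-0.18). The cause of these shifts was not tested. No paired analysis was possible because each rat number occurs in 1 diet alone. Depth limits genes under about 1 CPM, such as Abcb1b and Abca16.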
